A study of Homo sapiens with 8 samples.

Results

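The genes described here are 35 human genes for subunits of GABA-A receptors and for glutamate receptors, 12 for GABA-A subunits and 23 for AMPA (3 genes), delta (1), kainate (5), NMDA (7) and metabotropic (7) glutamate receptors. They were chosen by name, as a gene family, and no rule on a measured value was used. Earlier results of these data were known when the choice was made. The genes are 35 of the 20090 protein-coding genes of chromosomes 1 to 22 and X in the GENCODE annotation on GRCh37 (hg19). Each gene region was the annotated gene plus 2 kb upstream. The cells were PC9, an adenocarcinoma line of human lung origin, and had been treated for 5 days with DMSO, the solvent control, or with 1 μM GSK126, a small molecule inhibitor of EZH2. ChIP-seq was carried out for H3K27me3 and for H3K4me3, with 2 libraries for each mark and treatment, and all libraries, DMSO included, held the same kind of D. melanogaster spike-in chromatin (OSS cells) with an antibody against the fly histone variant H2Av. All 8 libraries came from 1 cell line. The study calls its replicates biological, and with 2 of them the spread between replicates is known only roughly.

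EZH2 is the catalytic subunit of Polycomb repressive complex 2, which trimethylates lysine 27 of histone H3. This mark is typical of silent genes, and in cells outside the nervous system it often covers genes for neuronal receptors, ion channels and developmental regulators, where it can form wide domains over the whole gene. H3K4me3 marks the start sites of active or poised genes, and a start site that carries both marks is called bivalent. GABA-A receptors are chloride channels made of 5 subunits that mediate fast inhibition in the brain. AMPA, kainate and NMDA receptors are glutamate-gated cation channels, and metabotropic glutamate receptors signal through G proteins.

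CpG-rich promoters are the sites at which Polycomb marks and H3K4me3 are usually found in mammalian cells. The sequences below are the 250 bases before the start site of 6 of the genes, with every CpG in capitals. GRIK4 and GRM8 had the most CpG among the 29 genes with an entry in the RefSeq promoter table. GABRP and GABRR1 had the fewest, in a tie with GABRA6, which is not printed. GRIK2 and GRM4 were added after their values were seen, because all 250 of their bases lay in islands of both marks in every library (spike-in lists for H3K27me3, standard lists for H3K4me3). The bases are from RefSeq (GRCh38.p14), and each was found exactly once in GRCh37, whose coordinates are given. Sequences are written 5′ to 3′ on the strand of the gene.
GRIK4, chr11:120382207-120382456, plus strand: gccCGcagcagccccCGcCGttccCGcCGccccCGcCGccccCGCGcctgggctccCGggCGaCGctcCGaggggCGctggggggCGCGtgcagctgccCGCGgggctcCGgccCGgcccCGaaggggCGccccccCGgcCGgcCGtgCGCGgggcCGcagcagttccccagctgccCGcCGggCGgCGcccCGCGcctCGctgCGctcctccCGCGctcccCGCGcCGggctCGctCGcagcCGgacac
GRM8, chr7:126892996-126893245, minus strand: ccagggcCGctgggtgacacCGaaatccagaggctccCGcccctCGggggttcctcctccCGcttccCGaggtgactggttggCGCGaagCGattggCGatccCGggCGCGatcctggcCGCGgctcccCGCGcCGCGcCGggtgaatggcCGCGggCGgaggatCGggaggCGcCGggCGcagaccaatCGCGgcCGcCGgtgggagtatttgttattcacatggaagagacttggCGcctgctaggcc
GRIK2, chr6:101841334-101841583, plus strand: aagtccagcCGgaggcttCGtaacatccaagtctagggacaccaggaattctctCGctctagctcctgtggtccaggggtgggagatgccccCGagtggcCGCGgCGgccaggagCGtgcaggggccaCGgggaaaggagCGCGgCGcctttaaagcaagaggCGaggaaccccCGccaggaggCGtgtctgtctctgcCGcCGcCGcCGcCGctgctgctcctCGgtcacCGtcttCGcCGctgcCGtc
GRM4, chr6:34113865-34114114, minus strand: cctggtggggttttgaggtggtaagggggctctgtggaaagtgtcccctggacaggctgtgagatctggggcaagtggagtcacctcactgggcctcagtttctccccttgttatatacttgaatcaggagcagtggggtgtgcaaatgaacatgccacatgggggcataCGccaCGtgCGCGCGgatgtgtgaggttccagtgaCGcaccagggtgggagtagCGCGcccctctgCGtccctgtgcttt
GABRP, chr5:170210479-170210728, plus strand: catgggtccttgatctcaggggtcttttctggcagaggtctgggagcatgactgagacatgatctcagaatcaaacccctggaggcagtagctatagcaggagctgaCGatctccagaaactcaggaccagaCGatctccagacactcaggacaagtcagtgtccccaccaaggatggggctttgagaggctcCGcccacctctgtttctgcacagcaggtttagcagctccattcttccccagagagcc
GABRR1, chr6:89927497-89927746, minus strand: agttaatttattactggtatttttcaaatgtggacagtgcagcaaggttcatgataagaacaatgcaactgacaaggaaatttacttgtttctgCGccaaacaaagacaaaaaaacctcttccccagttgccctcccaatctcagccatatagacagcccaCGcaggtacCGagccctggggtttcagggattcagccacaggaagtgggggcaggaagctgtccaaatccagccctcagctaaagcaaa

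The letters CG read the same on both strands. They occurred 44 times before GRIK4, 32 times before GRM8, 25 times before GRIK2, 9 times before GRM4 and 3 times each before GABRP and GABRR1. At least 1 CpG was present in all 29 promoters and in 93.9% of the 35116 promoters of the table, and the median was 11 in both. As many CpG as before GRIK4 were found in 0.769% of all promoters, as many as before GRM8 in 9.52%, and as many as before GABRP in 77.1%. CpG number alone did not sort the promoters by H3K27me3. The 12 promoters that H3K27me3 islands overlapped in both DMSO libraries had 5 to 32 CpG (median 10), and the 13 that they overlapped in no spike-in list had 3 to 27 (median 6).

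The deposited lists hold islands, stretches of 200-bp windows that SICER found to be enriched for tags, and each library has 1 or 2 lists. In the spike-in lists, the authors had removed human tags in proportion to the D. melanogaster tags, which left the GSK126 H3K27me3 libraries with 23.1% and 19.6% of the tag density of DMSO in replicates 1 and 2. In the standard lists both libraries of a replicate had the same tag density. For H3K4me3, the spike-in lists with GSK126 had 83.6% and 86.9% of the DMSO density. The expected tags per window in DMSO were 1.65 and 2.33 for H3K27me3 (spike-in lists) and 1.77 and 0.302 for H3K4me3, so that H3K4me3 replicate 2 was the shallowest. A gene was called lower when its covered length with GSK126 was at most 0.5 of that with DMSO in both replicates, given at least 1 kb in both DMSO libraries. It was called higher for a 2-fold rise in both, given at least 1 kb in both GSK126 libraries. No p-value was computed, since 2 libraries against 2 cannot give an exact permutation p below 0.333, or 0.5 for replicate pairs. Marker genes were examined against the cell line's label. H3K4me3 islands lay at the start sites of 6 of 8 epithelial markers, including CDH1, KRT8 and EGFR, and of 2 of 7 neuronal markers, in both DMSO libraries. They were at none of 5 blood markers and none of 3 fibroblast or endothelial markers.

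In DMSO-treated cells, H3K27me3 cover of the receptor genes ranged from none to the whole region. Islands covered at least 50% of the region (mean of 2 libraries, spike-in lists) in 10 genes, which is 28.6% of the receptor genes and compares with 12.7% of all protein-coding genes. These were GABRD, GRIK3, GRIK4, GRIK5, GRIN1, GRIN2C, GRIN3B, GRM2, GRM4 and GRM6. Another 6 genes were covered by 10% to 50%, and 8 by less than 10%. The remaining 11 genes, GABRA2, GABRA4, GABRA6, GABRG1, GABRP, GABRR1, GABRR2, GRIA2, GRIA4, GRIK1 and GRM3, had no island in any H3K27me3 list of either treatment. That was 31.4% of the receptor genes and 67% of all genes. The shares are a description of a family chosen by name, and no test was made of them.

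**Figure D1:**
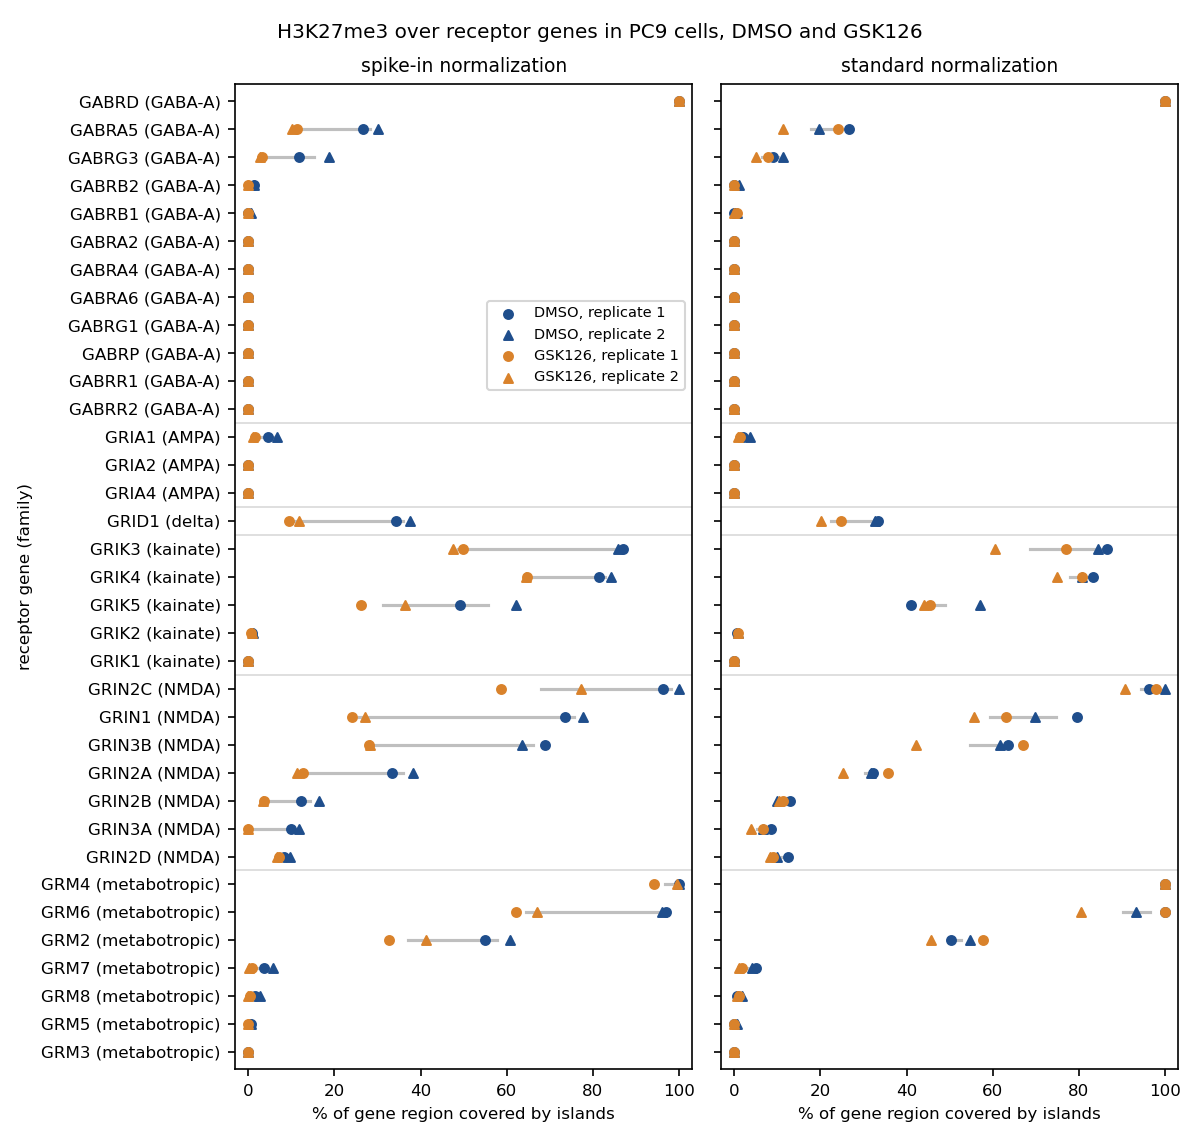
Share of each receptor gene region (gene plus 2 kb upstream, in %) covered by H3K27me3 islands in each of 2 DMSO and 2 GSK126 libraries, in the spike-in (left) and standard (right) lists; grey lines join the treatment means. In the spike-in lists GABRD stays at 100% and GRM4 near it, GRIN1 goes from 75.6% to 25.6%, and 11 genes are at 0 throughout.

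The families differed in how much of them was covered. Kainate receptor genes were covered over 27.8% and 28.8% of their summed length in the 2 DMSO libraries, with 3 of 5 genes above 49%. For the NMDA receptor genes the values were 22.4% and 26.4%, and all 7 had at least 1 kb of islands in both libraries. The delta receptor gene GRID1 had 34.2% and 37.6%. The metabotropic genes had 7.93% and 9.01%, the GABA-A genes 5.06% and 7.22%, and the AMPA genes 1.69% and 2.46%. Within the GABA-A genes GABRD was covered over 100% of its short region, GABRG3 held the longest covered length, and 7 of the 12 genes had no island at all. Of the 7 metabotropic genes, GRM4 and GRM6 were covered nearly end to end, and GRM3 was bare.

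Cover was higher in genes of higher GC content. The 10 genes covered by at least 50% had a median GC content of 56.0% (48.0% to 63.9%), and the 11 without an island had a median of 36.2% (32.8% to 45.5%). Across the 35 genes Spearman's rho between GC content and cover in DMSO was 0.78 (Pearson's r 0.85), against a Spearman's rho of 0.29 across all 20090 genes. Genes are not independent replicates, so that no p-value is given, and the part of base composition in the tag counts was not tested. The length of the region was less related to cover (rho −0.23). GRIN2D stood apart, with 53.3% GC and cover of 8.26% and 9.76%.

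**Figure D2:**
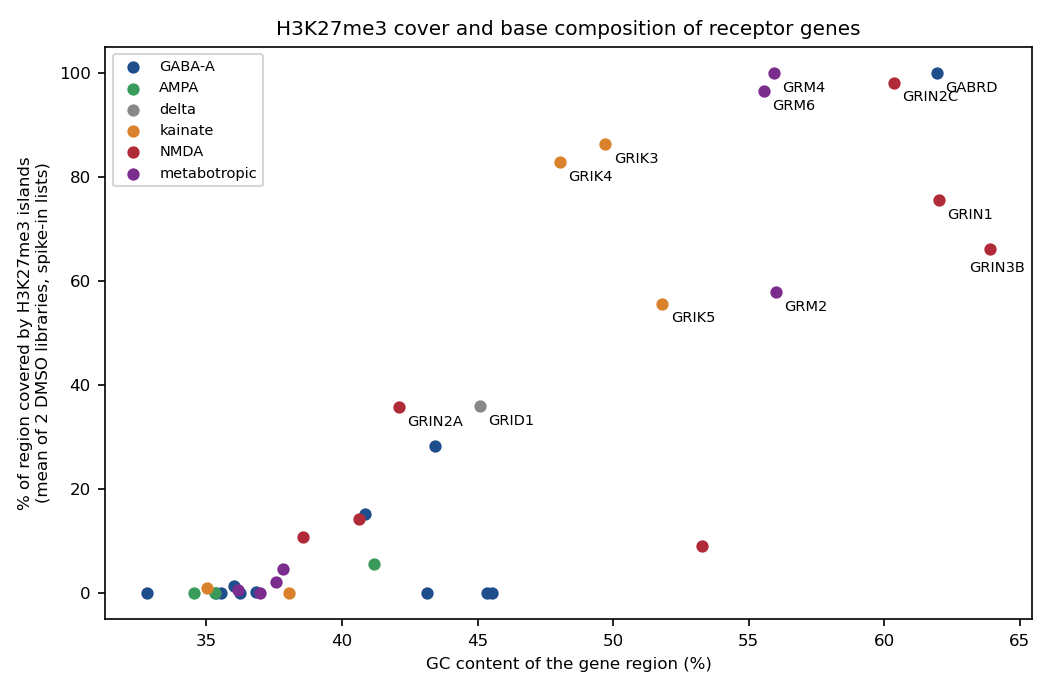
Share of each receptor gene region covered by H3K27me3 islands (%, mean of 2 DMSO libraries, spike-in lists) against the GC content of the region (%); each of the 35 points is a gene, coloured by family. The 10 genes covered by at least 50% lie at a GC content of 48.0% or more, and every gene under 40% GC is covered by less than 11%.

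With GSK126, H3K27me3 cover over the receptor genes was lower in the spike-in lists. Over all 35 genes the covered length was 1532 and 1712 kb with DMSO and 837 and 851 kb with GSK126, which is 54.6% and 49.7% of DMSO in replicates 1 and 2. The log2 ratio was −0.94 ± 0.10 (SD, n = 2), and over all protein-coding genes it was −1.06 ± 0.02. Of the 35 genes, 23 had at least 1 kb in both DMSO libraries and could be called lower. Of these, 13 were called lower, when 55.3% of all 5352 genes tested were, so that the receptor genes did not stand out by this count. Both GSK126 values lay below both DMSO values for 21 of the 23, where the share over all genes tested was 87.2%. The exceptions were GABRD, which was fully covered in all 4 libraries, and GRIK2. None of 19 genes tested was called higher, against 0.0328% of all genes. The median log2 ratio of the 23 genes was −1.39, and that of all genes tested was −1.89. The test for a lower value takes genes for their DMSO cover, and the GSK126 spike-in lists hold fewer tags by construction, so that a thinner mark and a lower chance of finding a weak island cannot be told apart in covered length.

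Among the GABA-A genes, GABRD codes for the delta subunit of extrasynaptic receptors. It was covered over 13.4 kb, all of its region, in every library. The island that held it was 42.2 and 45.8 kb long with DMSO and 28.8 and 38.4 kb with GSK126, and thus shortened at its edges outside the gene. GABRA5 (alpha subunit, chr15:27112058-27194355) had 22.4 and 25.4 kb of islands with DMSO and 9.60 and 8.60 kb with GSK126. Its log2 ratio was −1.39 ± 0.24 (SD, n = 2), and the treatments did not overlap. GABRG3 (gamma subunit), its neighbour on chromosome 15, had 66.8 and 107 kb with DMSO in 18 and 23 islands, and 18.4 and 16.2 kb with GSK126 in 4 islands each. It was called lower, with a log2 ratio of −2.29 ± 0.61. GABRB2 (beta subunit) had 1 small island of 3.60 and 3.40 kb with DMSO and none with GSK126, which is 18-fold and 17-fold lower at the floor of 200 bp. This island was weak. With a score of at least 2 times the lowest of the list the log2 ratio of GABRB2 was 0. In the standard list of DMSO replicate 1 GABRB2 had no island. GABRB1 had 1 island of 2.40 kb in DMSO replicate 2 alone and could not be called. The regions of GABRA4 and GABRB1 share 3859 bp, and those of GABRA6 and GABRB2 share 5982 bp, and no H3K27me3 island lay over GABRA4 or GABRA6.

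By family, the covered length that remained in the spike-in lists was largest for the kainate genes (70.8% and 68.8% of DMSO in replicates 1 and 2) and the metabotropic genes (72.5% and 64.5%). It was at most 39.0% in the GABA-A, AMPA, delta and NMDA genes. The metabotropic value rested mainly on GRM4. That gene held 139 kb of the 218 and 248 kb with DMSO, and 131 and 138 kb of the 158 and 160 kb with GSK126. Of the 6 metabotropic genes tested 3 were called lower, and of the 4 kainate genes tested none was, against 55.3% of all genes tested. GRIK4, which codes for a high-affinity kainate subunit, was covered over 390.4 and 404 kb (81.5% and 84.3%) with DMSO and over 310.4 and 309 kb (64.8% and 64.4%) with GSK126. The drop exceeded the difference between replicates, and the log2 ratio was only −0.36 ± 0.04. GRIK3 was covered by 87.1% and 85.7% with DMSO and by 50.0% and 47.6% with GSK126, a log2 ratio of −0.82 ± 0.03. In the spike-in lists its islands were shorter and more numerous with GSK126. With DMSO the longest islands were 70.6 and 55.0 kb, and with GSK126 they were 13.6 and 18.2 kb, while the number of islands went from 13 and 10 to 16 and 17. In GRIK3 the part of the region nearer the start site, up to the midpoint, went from 89.9% and 87.2% to 38.7% and 38.1%, and the far part from 84.2% in both to 61.2% and 57.1%. GRIK4 showed the opposite order, with 94.7% and 94.3% against 85.0% and 81.6% in the near part, and 68.2% and 74.3% against 44.6% and 47.2% in the far part. GRIK5 (49.2% and 62.2% with DMSO, 26.2% and 36.4% with GSK126) was also lower in both replicates without reaching 2-fold. GRIK2 carried H3K27me3 over 8.40 and 11.6 kb of its 1121 kb with DMSO and over 6.20 and 9.40 kb with GSK126, so that the treatments overlapped. In the standard lists, at equal tag numbers, GRIK3 had 10 and 11 islands with DMSO and 12 and 14 with GSK126. GRIK4 had 17 and 23 with DMSO and 13 and 15 with GSK126. Its cover in those lists was 83.2% and 80.7% with DMSO and 80.8% and 74.9% with GSK126.

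**Figure D3:**
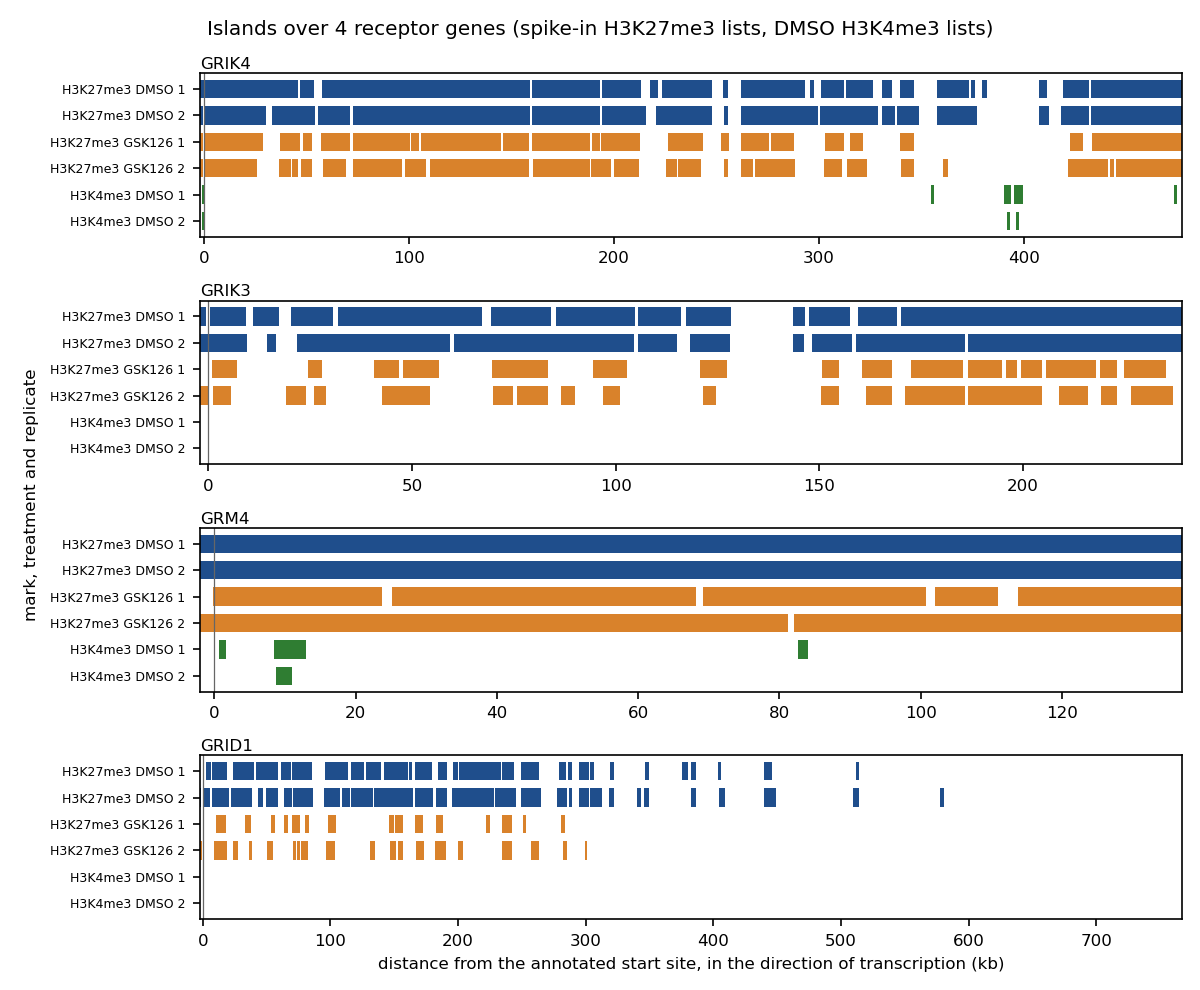
Islands over GRIK4, GRIK3, GRM4 and GRID1 along the distance from the annotated start site (kb), with one row for each library of H3K27me3 (spike-in lists) and for each DMSO library of H3K4me3. The GRM4 domain stays near full length with GSK126 (94.1% and 99.4% covered), and GRID1 keeps short islands up to the midpoint of its region only. The longest islands of GRIK3 and GRIK4 are shorter with GSK126 in these lists, which hold fewer tags.

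In the spike-in lists NMDA receptor genes lost a larger share, to 36.0% and 29.9% of the DMSO length. Of these genes 5 of 7 were called lower, where the share over all genes tested was 55.3%. In the standard lists, at equal tag numbers, the NMDA genes kept 98.4% and 85.1%, and the kainate genes 95.6% and 85.3%. The metabotropic genes kept 87.8% and 79.5% there, the GABA-A genes 94.0% and 52.4%, GRID1 74.4% and 61.8%, and the AMPA genes 60% and 25.9%. In those lists 0 of 7 NMDA genes were called lower, against 14.5% of all genes tested. GRIN1 codes for the subunit that every NMDA receptor contains. In the spike-in lists it was covered by 73.5% and 77.8% with DMSO and by 24.1% and 27.2% with GSK126. Among the genes with over 50% cover in DMSO, GRIN1 and GRIN3B were the 2 called lower. GRIN3B, a glycine-binding subunit gene, went from 68.8% and 63.5% to 28.1% and 28.3%, a log2 ratio of −1.23 ± 0.09, and with the upstream 2 kb left out its mean log2 ratio was −1.54 but replicate 2 fell short of 2-fold. GRIN3A, which codes for another subunit of that kind, had 16.8 and 20.1 kb in 3 islands with DMSO and no island with GSK126 in either replicate. At the floor of 200 bp this was 84-fold and 101-fold lower, and the log2 ratio of GRIN3A was the most negative of the receptor genes. In the standard lists, at equal tag numbers, GRIN3A had 14.6 and 11.4 kb with DMSO and 11.6 and 6.8 kb with GSK126. Its log2 ratio there was −0.54 ± 0.29, and it was not called lower. GRIN2A and GRIN2B, the genes for the main glutamate-binding subunits of the forebrain, went from 144 and 165 kb to 55.2 and 48.4 kb, and from 66.6 and 89.8 kb to 19.8 and 19.2 kb. GRIN2C, known for its expression in the cerebellum, kept more: 96.3% and 100% of it was covered with DMSO, and 58.7% and 77.3% with GSK126. GRIN2D had 1 island at its start site in every library, of 4.40 and 5.20 kb with DMSO and 3.80 and 3.60 kb with GSK126.

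The delta receptor gene GRID1, which codes for a synaptic organizer related to the ionotropic receptors, was called lower. It had 28 and 29 islands over 263 and 289 kb with DMSO, and 15 and 19 islands over 73.6 and 90.8 kb with GSK126 (log2 ratio −1.76 ± 0.12). With DMSO 64.2% and 68.4% of the part up to the midpoint was covered, and 4.25% and 6.74% of the far part. With GSK126 these were 19.1% and 23.6%, and 0% in the far part of both replicates. In the AMPA receptor gene GRIA1, the sole AMPA gene with H3K27me3, the covered length was 15.0 and 21.8 kb with DMSO and 5.00 and 3.20 kb with GSK126. The longest GRIA1 island with DMSO lay 188 and 187 kb downstream of the start site, and the island that remained with GSK126 lay on the start site, from −0.37 kb in both replicates.

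The metabotropic genes divided by how they were covered. GRM4, a presynaptic receptor gene, lay in 1 island of 155 and 172 kb with DMSO and was 100% covered in both libraries. With GSK126 it was covered by 94.1% in 5 islands and by 99.4% in 2 islands. GRM6, the receptor gene of retinal ON bipolar cells, was covered by 97.0% and 96.1% with DMSO and by 62.1% and 67% with GSK126. GRM2, a presynaptic autoreceptor gene, went from 54.8% and 60.7% to 32.7% and 41.3%. None of these 3 reached the 2-fold rule, although all were lower in both replicates without overlap.

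The other 3 tested metabotropic genes, GRM5, GRM7 and GRM8, are long genes with little H3K27me3, and all were called lower. GRM7 had 35.2 and 55.8 kb in 10 and 13 islands with DMSO, and 7.6 and 2.2 kb in 2 and 1 islands with GSK126. GRM5 had 4.00 and 3.60 kb with DMSO and no island with GSK126, which is 20-fold and 18-fold lower at the floor of 200 bp. These DMSO islands were weak. With a score of at least 2 times the lowest of the list the log2 ratio of GRM5 was 0. In the standard list of DMSO replicate 1 GRM5 had no island. GRM8 had 12.5 and 21.3 kb with DMSO. With GSK126 it kept 1 island of 2.60 kb, which lay on the start site, in replicate 1 and none in replicate 2, so that the replicates differed in size by more than for any other gene tested (log2 ratios −2.27 and −6.74).

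**Figure D4:**
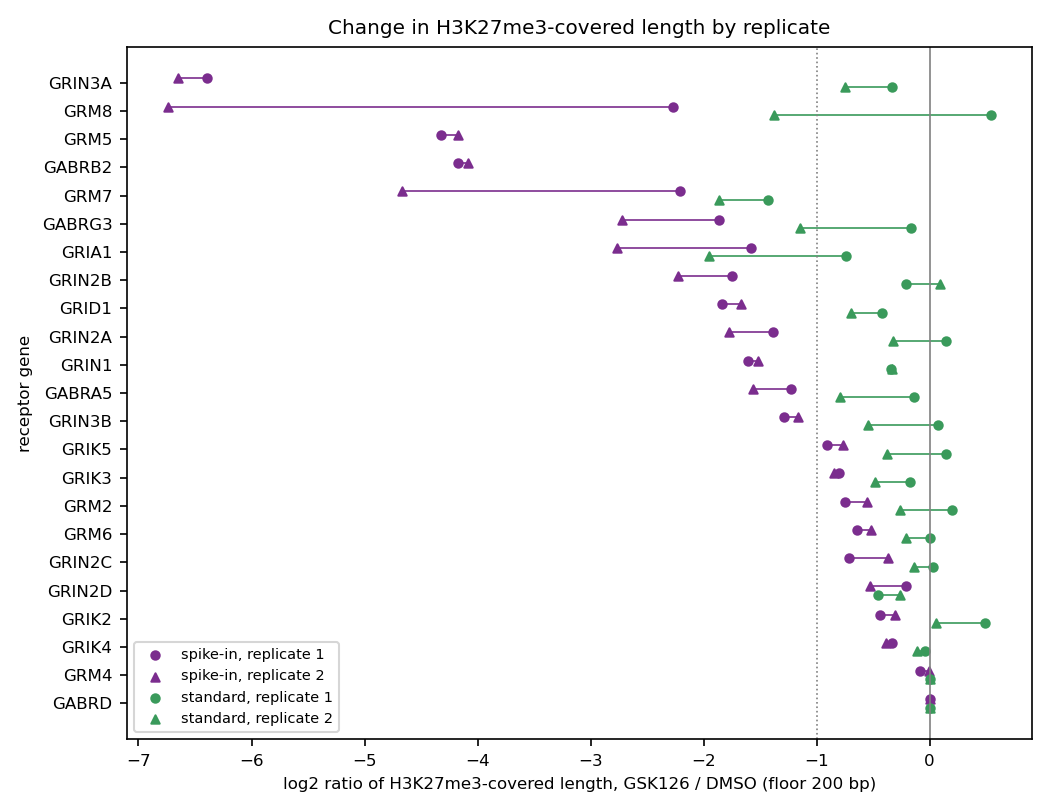
Log2 ratio of H3K27me3-covered length (GSK126 / DMSO, floor of 200 bp) in each replicate for the 23 receptor genes tested in the spike-in lists (purple) and, where at least 1 kb was covered in both DMSO lists, in the standard lists (green); the dotted line marks a 2-fold lower value. In the spike-in lists the values run from −6.52 (mean, GRIN3A) to 0 (GABRD), and most standard values lie between −1 and 0.5.

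In the spike-in lists, genes with denser islands in DMSO kept more of their cover. Across the 23 tested genes, Spearman's rho between the DMSO island score per covered kb and the log2 ratio was 0.91, and it was 0.78 across all 5352 genes tested. The score is a sum of negative log probabilities over the windows of an island and rises with tag density. Both measures rest on the same DMSO lists, and the relation is across genes and not across samples. The GSK126 spike-in lists hold 23.1% and 19.6% of the DMSO tag density, and sparse islands are the first to be missed with fewer tags. The relation cannot tell this apart from a change in the mark, and the cause was not tested. Long islands were also kept more often. Of the DMSO islands over 10 kb in these gene regions, 38 of 43 in replicate 1 and 45 of 46 in replicate 2 overlapped a GSK126 island. Of those of 2 to 10 kb, 38 of 105 and 22 of 111 did, and of those up to 2 kb, 2 of 18 and 2 of 11. A long island has more bases at which it can overlap another. Upstream sequence and exons were covered more than the rest of the genes in both treatments. In DMSO 34.4% and 37.6% of the upstream 2 kb, 27.5% and 29.3% of canonical exons and 14.8% and 16.5% of the rest of the genes were covered, and with GSK126 these were 16% and 20.8%, 16.7% and 17.1%, and 8.05% and 8.15%.

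At start sites, defined as the annotated gene start with 1 kb on either side, 15 of the 35 genes had an H3K27me3 island in both DMSO libraries (42.9%, against 17.8% of all genes). Of these, 10 still had one in both GSK126 libraries of the spike-in normalization (28.6% of the 35 genes, against 8.95% of all genes). GRIN2A and GRIN3A had none in either GSK126 library. Such a loss was seen for 5.71% of the 35 genes and 6.06% of all genes, so that the receptor genes did not stand out by it. GRIN1, GRIN2B and GRM8 had an island in 1 of the replicates. The genes with an island before and after were GABRD, GRIA1, GRIK3, GRIK4, GRIK5, GRIN2C, GRIN2D, GRIN3B, GRM4 and GRM6. In the standard lists 15 genes had such an island in both DMSO and 15 in both GSK126 libraries (42.9% each, against 16.3% and 13.3% of all genes). The annotated start of a gene can be far from its main promoter, and for 12 of the 29 genes in the promoter table the RefSeq start was over 1 kb away, by 431 kb in GRIK2. In the 250 bases before the RefSeq start, H3K27me3 islands were present in both DMSO libraries for 12 of 29 genes and in all 4 libraries for 7. They were absent from both GSK126 libraries for GRIN2A, GRIN3A and GRM7.

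When equal tag numbers were compared in the standard lists, much of the difference in cover was not seen. Over the 35 genes the covered length was 1502 and 1488 kb with DMSO and 1368 and 1157 kb with GSK126, a log2 ratio of −0.25 ± 0.16 (SD, n = 2), and −0.31 ± 0.14 over all genes. Of 21 genes tested, 1 was called lower, GRM7, against 14.5% of all genes tested. GRM7 had 49 and 40 kb with DMSO and 18.2 and 11 kb with GSK126, and was called lower in both normalizations. No receptor gene was called higher, where 1.22% of all genes were. Both GSK126 values were below both DMSO values for 7 of 21 genes, against 44% of all genes. These were GABRG3, GRIA1, GRID1, GRIK3, GRIN1, GRIN2D and GRM7. The value was lower in both replicates for 10 genes (56.5% of all genes) and higher in both for 1, GRIK2 (8.22%). Replicate 2 differed more than replicate 1, and without replicate 1 the number called lower was 7. For a single pair no share over all genes is given, and the 14.5% does not apply to it.

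Since the standard lists of a replicate rest on equal tag densities, island scores could also be compared between treatments. The summed H3K27me3 score over the receptor genes was higher with GSK126, 66330 and 78821 with DMSO and 88257 and 132248 with GSK126, and its log2 ratio of 0.58 ± 0.24 was near that of all genes (0.54 ± 0.25). The sum is dominated by the largest domains, and the median gene was close to no difference (log2 ratio 0.07, against −0.23 for all genes tested). Scores were higher with GSK126 in both replicates for 10 of 21 genes, against 33.6% of all genes tested, and lower in both for 6, against 48.9%. The 10 genes included all 4 tested kainate genes, and the highest ratios were those of GABRD, GRM4 and GRIK4. The GABRD score was 1290 and 1484 with DMSO and 2318 and 4233 with GSK126, a ratio of 1.80 and 2.85. GRM4 (1.55 and 2.29) and GRIK4 (1.51 and 2.13) moved the same way. GRM7 had 708 and 677 with DMSO and 350.3 and 246 with GSK126, a ratio of 0.495 and 0.363. Ratios below 1 in both replicates were also found for GRIN1 (0.753 and 0.596), GRM6 (0.763 and 0.588) and GRID1 (0.765 and 0.598), and for GRIN3B and GRM2. At equal tag numbers a gain at one place goes with a loss at another, so that these ratios give the relative share of the mark and not its amount. The gap between replicates was as large as some of the ratios.

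**Figure D5:**
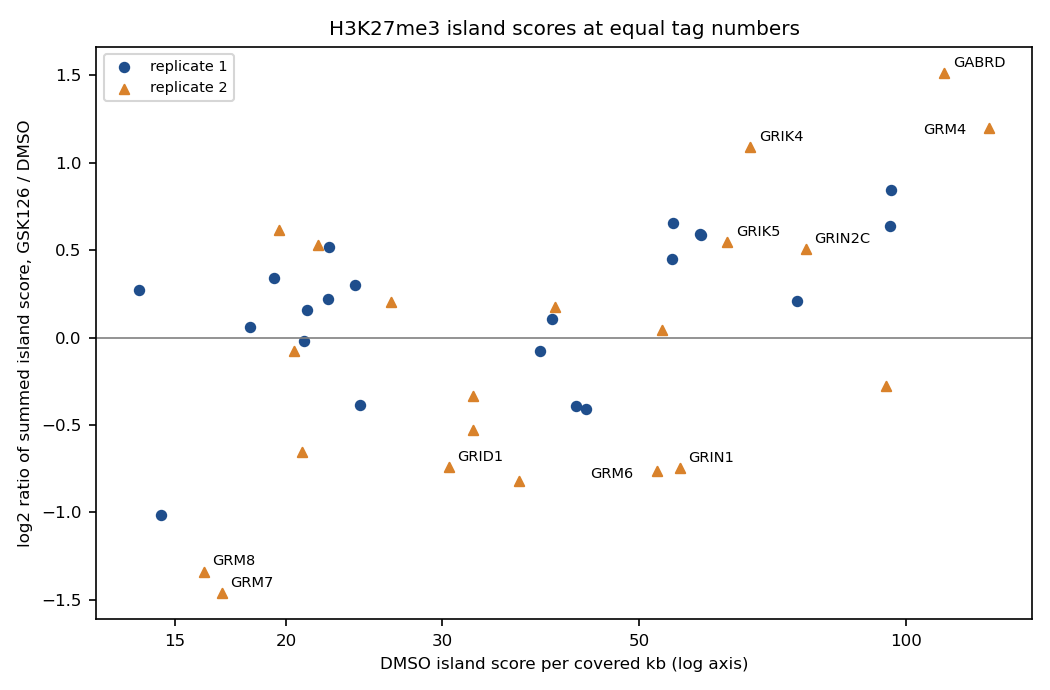
Log2 ratio of the summed H3K27me3 island score (GSK126 / DMSO, standard lists, equal tag numbers) for 21 receptor genes in replicate 1 (circles) and 2 (triangles) against the DMSO score per covered kb (log axis); both axes use the DMSO score. By the mean of both replicates GABRD, GRM4 and GRIK4 lie highest and GRM7 lies lowest.

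H3K4me3 was rare at these genes. An island lay within 1 kb of the annotated start in both DMSO libraries for 4 genes, GRIK4, GRIN2D, GRIN3B and GRM8, which is 11.4% and compares with 59.4% of all genes. All 4 also carried H3K27me3 there, so that both marks met at 4 of 35 start sites (11.4%, against 4.87% of all genes). A further 17 genes (48.6%, against 23.6%) had neither mark at the annotated start in any DMSO library. They include GABRB1 and GRIK2, which had H3K4me3 at the start of another coding transcript in both DMSO libraries. The lists cannot say whether both marks were on the same nucleosomes or in different cells.

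The 4 genes differed in how the H3K4me3 islands lay (standard lists). At GRM8 they were 3.00 and 1.80 kb long at the start site with DMSO and 2.40 and 1.40 kb with GSK126, wholly inside the DMSO H3K27me3 islands. At GRIN3B they were 2.20 and 0.800 kb with DMSO and 1.80 and 1.60 kb with GSK126. At GRIK4 they were 1.00 and 1.80 kb with DMSO, and 0.600 kb and none with GSK126. The GRIN2D island in DMSO replicate 1 was 14 kb long and lay within 1 kb of the start of KDELR1 as well, and a second island lay within 1 kb of the start of GRWD1, so that the H3K4me3 of GRIN2D could not be separated from that of its neighbours. GRIN1 likewise had islands of 8 and 3.4 kb with DMSO near its far end, next to the start of LRRC26, and none at its own start.

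Alternative promoters added 3 genes. With the start of any coding transcript, H3K4me3 was also found in both DMSO libraries at GABRB1, GRIK2 and GRM4. No share of all genes is given for this definition, and the 59.4% is for the annotated start. At GRIK2 and GRM4 these are the promoters printed above, where all 250 bases lay under both marks in all libraries of both treatments. The H3K4me3 island at the GRIK2 promoter was 3.20 and 1.80 kb with DMSO and 2.40 and 1.40 kb with GSK126, and the H3K27me3 islands covered 93.8% and 100% of the DMSO ones. At GABRB1 the H3K4me3 island was 2.60 and 1.60 kb with DMSO, and an H3K27me3 island covered it in replicate 2 only.

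H3K4me3 was called lower or higher with GSK126 at none of the receptor genes, by the 2-fold rule in both replicates. Covered length over the 35 genes was 64.5 and 24.5 kb with DMSO and 49.3 and 20.9 kb with GSK126 in the spike-in lists (log2 ratio −0.31 ± 0.11, against −0.17 ± 0.01 over all genes). In the standard lists it was −0.34 ± 0.23. Of 7 genes that could be called lower, 0 were, against 0.549% of all genes in the spike-in and 0.472% in the standard lists. Of 8 and 9 that could be called higher, 0 were, against 0.031% and 0.0537%. GRIK2, GRIK4 and GRIN1 had less H3K4me3 in both replicates and both normalizations, by under 2-fold in at least 1 replicate of the spike-in lists. For a value below DMSO in both replicates the share of all genes was 37.8% in the spike-in and 38.5% in the standard lists. GRIK4 went from 12 and 4.4 kb to 7.4 and 0.4 kb, GRIK2 from 4.80 and 2.20 kb to 2.60 and 1.40 kb, and GRIN1 from 5.41 and 3.21 kb to 3.61 and 1.21 kb. The count called lower rests on both replicates together, and it was 2 in either replicate alone in the spike-in lists, for which no share over all genes is given. At equal tag numbers the summed H3K4me3 score had a log2 ratio of −0.11 ± 0.02 (−0.01 ± 0.12 over all genes). It was lower in both replicates for 4 of 7 genes (GRIK4, GRIN1, GRIN2D and GRM4), against 23.9% of all genes, and higher in both for 1, GABRB1, against 28% of all genes. The GABRB1 score was 359 and 89.3 with DMSO and 709 and 126 with GSK126, although its covered length was nearly the same in both treatments.

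Genes that act beside the receptors were examined in the same way for H3K27me3 in the spike-in lists. The share of all genes tested that was called lower, 55.3%, applies to each count. Of the genes for GABA synthesis and transport, 1 of 8 tested was called lower (ABAT, which degrades GABA). SLC32A1, the vesicular GABA transporter gene, was 100% covered in all 4 libraries. SLC6A12, which codes for a plasma membrane transporter of GABA and betaine, was also 100% covered with DMSO, and by 97.0% and 95.5% with GSK126. Of the glutamate transport and turnover genes 3 of 6 were called lower. The vesicular glutamate transporter gene SLC17A7 had 93.2% in both DMSO and 81.2% in both GSK126 libraries, SLC1A7 had 65.3% and 58.8% against 16% and 22.6%, and SLC17A8 had 25% and 38.4% against 5.08% and 7.46%. All 3 tested genes for GABA-B and glycine receptors were called lower. Those were GABBR1 (25.4% and 26.1% against 8.71% and 9.96%), GABBR2 (30.4% and 28.8% against 2.42% and 2.98%) and GLRA1 (14.6% and 15.1% against 0% in both). Of the auxiliary subunits and scaffolds 7 of 12 were called lower. The widest domains in that list were kept in the main, with SHANK1 at 98.4% and 97.4% against 89.8% and 91.0%, CACNG2 at 92.8% and 93% against 72.6% and 72.1%, and GRIP2 at 84.7% and 80.9% against 52.8% and 55.1%. None of the 4 lists had a gene called higher.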

How the data were processed

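H3K27me3 and H3K4me3 ChIP-seq of PC9 cells was used as 14 island lists from 8 libraries. According to the study's methods, the authors aligned 50-nt tags to hg19 with BWA, kept unique tags (mapping quality over 25) without duplicates, removed tags at random within each replicate for the standard or the spike-in normalization, and called islands per library with SICER 1.1 (gaps 600 bp for H3K27me3 and 200 bp for H3K4me3, E-value 1). The window of 200 bp was read from the lists, where every island length is a multiple of it. The single measurement column deposited is the island score, which depends on tag number. H3K4me3 DMSO libraries had 1 list, used for both normalizations.

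Base pairs of each gene region under islands, and island scores apportioned by overlapping length, were summed in Python 3.11.15 with NumPy 2.4.6. Tag density per list was fitted with SciPy 1.17.1, from the scores of 2-window islands for H3K27me3 and of 1-window islands for H3K4me3. Both steps were tested on simulated data. Ratios were formed within replicates with a floor of 200 bp, because tags had been removed within replicates, and the replicate numbers are those of the study's sample sheet. Full values are given for the genes with the highest DMSO cover, the lowest ratios among those called lower, the largest score ratios and every H3K4me3 start, and the number of genes per rule was 6. Other genes were described for their role. The receptor genes, the related lists and the rules were chosen with earlier results of these data known. Plots were drawn with Matplotlib 3.10.9.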

Additional observations from a re-analysis of the deposited data

Results flagged for a closer look

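GRIK2, a kainate receptor gene, drew attention because the covered lengths of its marks moved in opposite directions in the standard lists. H3K27me3 covered 7.40 and 10.4 kb with DMSO and 10.4 and 10.8 kb with GSK126, so that it was higher in both replicates. H3K4me3 covered 4.80 and 2.20 kb with DMSO and 2.40 and 1.40 kb with GSK126. The DMSO lengths include an island of 1.60 and 0.40 kb that lay 263 and 264 kb from the annotated start and was absent with GSK126. The summed H3K4me3 score was higher with GSK126 in replicate 1 (670 with DMSO, 705 with GSK126) and lower in replicate 2 (178 and 138). The mean log2 ratio of covered length for H3K27me3 exceeded that for H3K4me3 by 1.1. The difference was not tested, and in the spike-in lists both marks were lower in both replicates. Groups of 2 libraries are too small to single out an outlying library.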

How the results depend on the processing

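The paired ratio within replicates was set against a ratio of treatment means (no replicate block). Without the block the counts called lower were 4 instead of 1 for H3K27me3 in the standard lists, and 2 (spike-in) and 4 (standard) instead of 0 for H3K4me3. It changed no other count by over 1.5 times. In a 5 kb window at the start site, H3K27me3 was lower by less, with log2 ratios of −0.71 (spike-in) and −0.018 (standard), and 3 genes (spike-in) and 0 (standard) were called lower. For H3K4me3 in that window the spike-in ratio was −0.18, and the summed score reversed to 0.00056. The H3K4me3 score ratio was −0.064 in the gene body alone and −0.089 with a score of at least 2 times the lowest of the list. With DMSO lists of the standard normalization the H3K27me3 spike-in ratio was −0.82. A 1.5-fold rule called 2 genes lower for H3K27me3 (standard), and 2 (spike-in) and 3 (standard) for H3K4me3. H3K4me3 start sites in both DMSO libraries numbered 7 for the start of any coding transcript and 2 for the stricter score, which also left 2 with both marks.

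Leaving out a replicate gave 13 to 14 genes called lower for H3K27me3 in the spike-in lists and 1 to 7 in the standard lists, where 0 to 1 were called higher. For H3K4me3, 2 (spike-in) and 2 to 3 (standard) were called lower, and 0 to 1 (spike-in) and 0 to 3 (standard) higher. A single pair has no replicate check, and the cause of these differences was not tested. The counts under other settings were made for the receptor genes only, so that no share over all genes stands beside them. Of the 13 genes called lower in the spike-in lists, 8 kept the call under every alternative but the 5 kb window: GABRG3, GRID1, GRIN1, GRIN2A, GRIN2B, GRIN3A, GRM7 and GRM8. GABRA5, GABRB2, GRIA1, GRIN3B and GRM5 lost it under at least 1. Depth limits the smallest islands, most of all in H3K4me3 replicate 2 and in the spike-in lists with GSK126.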
